A study of Homo sapiens with 10 samples.

Results

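The 68 genes described here code for the proteins at the centre of pre-mRNA splicing. They were taken by symbol, as every protein-coding gene starting with SRSF, HNRNP, SF3A, SF3B, PRPF, SNRP or U2AF. All 68 were listed among the 13029 genes of the *ZMAT3* experiment and among the 17642 genes of the siRNA experiment. They comprised 22 hnRNPs, 13 PRPF genes, 11 SNRP genes, 10 SR protein genes, 9 SF3A and SF3B genes and 3 U2AF genes. In the *ZMAT3* experiment the prefixes took 79 symbols, of which 11 were left out. Among these were *U2AF1L5*, which had no entry in GENCODE release 44, and *SRSF8*, which the siRNA table types as a pseudogene.

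RNA was sequenced from HCT116, a human colorectal cancer cell line. In the first experiment, 3 cultures of a wild-type clone (*ZMAT3*-WT) were compared with 3 cultures of a *ZMAT3* knockout clone (*ZMAT3*-KO). The knockout was made with CRISPR/Cas9 guides on either side of the p53 response element in an intron of *ZMAT3*, and both genotypes were untreated clones grown from single cells. With 1 clone of each genotype, the clone and the knockout cannot be told apart, and the p-values cover the spread between cultures. In the second experiment, HCT116 cells were transfected for 72 hours with a control siRNA (siCTRL, 2 libraries) or a pool of 4 siRNAs against p53 (sip53, 2 libraries). ZMAT3 is an RNA-binding protein induced by p53 that regulates alternative splicing, and the comparison asks whether its loss moves the splicing machinery.

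Splicing is carried out by the spliceosome, which is built from small nuclear ribonucleoproteins (snRNPs). In each snRNP of the major spliceosome except U6, a ring of Sm proteins, encoded by SNRP genes, encircles a small nuclear RNA. U2AF marks the 3′ splice site, SF3A and SF3B are parts of the U2 snRNP that binds the branch point, and many PRPF proteins belong to the U4/U6.U5 tri-snRNP or to the complexes that activate it. SR proteins mostly favour the use of exons they bind, whereas many hnRNPs coat nascent RNA and often silence exons.

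Expression in the *ZMAT3* experiment was deposited as log2 CPM, a read share of the library with no correction for gene length, with nearly the same distribution of values in all 6 libraries, and in the siRNA experiment as values that look like FPKM, a fragment share of the library that is divided by transcript length. Neither table gives read counts, so depth is unknown. *ZMAT3* mRNA was 5.00, 5.20 and 5.26 log2 CPM in *ZMAT3*-WT and 2.25, 2.34 and 2.20 in *ZMAT3*-KO. In the siRNA libraries it was 12.0 and 13.6 FPKM for siCTRL against 3.16 and 1.97 for sip53, so the labels and the *ZMAT3* level went together in both experiments. Of 6 epithelial markers with values, *KRT19*, *KRT8* and *KRT18* were lower in *ZMAT3*-KO by 1.75, 0.94 and 0.82 on the log2 scale, while *EPCAM*, *CDH1* and *CDX2* were at 8.55, 6.38 and 4.46 log2 CPM in *ZMAT3*-KO and were not called. Of 9 markers of other cells, only *COL1A1* and *DES* were listed in the *ZMAT3* table. *COL1A1* was higher in *ZMAT3*-KO by 0.16, and *DES* was at -0.05 and 0.42 log2 CPM in *ZMAT3*-WT and *ZMAT3*-KO. With sip53 none of these 8 markers passed the adjusted p. *DES* was at 6.16 and 4.28 FPKM with siCTRL and 13.3 and 21.9 with sip53 (unadjusted p = 0.00249, adjusted p = 0.124, limma), and *EPCAM* at 205 and 191 against 281 and 319 (unadjusted p = 0.0234, adjusted p = 0.247, limma). The part of these markers in the results was not tested.

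In *ZMAT3*-KO, the mRNAs of the snRNP core, of SF3A and the small SF3B subunits and of most PRPF proteins were modestly lower, while SR protein mRNAs stayed close to their *ZMAT3*-WT level and hnRNP mRNAs moved both ways. By limma with an adjusted p under 0.05, 32 of the 68 genes (47.1%) were lower, against 30.1% of all genes in the table, and 7 (10.3%) were higher, against 28.7%. In RNA from whole cultures, fewer cells of a kind and less RNA per cell cannot be told apart. The changes were small. None of the 68 passed an adjusted p of 0.05 together with a 1.5-fold change, which 8.96% of all genes did, and at an unadjusted p of 0.05 by the same limma fit 36 were lower, against 32.4% of all genes, and 7 higher, against 30.8%. The median log2 fold change was -0.08, against -0.005 for all genes, and 49 of the 68 values were below 0. Among the 3496 genes with a mean over 6 log2 CPM, 34.7% were lower and 30.4% higher by the adjusted p. Of those genes, 3.52% passed it together with a 1.5-fold change.

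Summed over the 68 genes, CPM fell from 24899 ± 176 in *ZMAT3*-WT to 23796 ± 156 in *ZMAT3*-KO (SD, n = 3), a change of -4.43%. The 3 sums of *ZMAT3*-WT lay above the 3 of *ZMAT3*-KO (two-sided exact permutation test, p = 0.1, the smallest that 3 against 3 allows). The number of higher genes was the less stable of the counts, being 3 when either *ZMAT3*-KO replicate 3 or *ZMAT3*-WT replicate 2 was left out, whereas the number of lower genes stayed between 30 and 36 over the 6 libraries left out in turn.

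**Figure D1:**
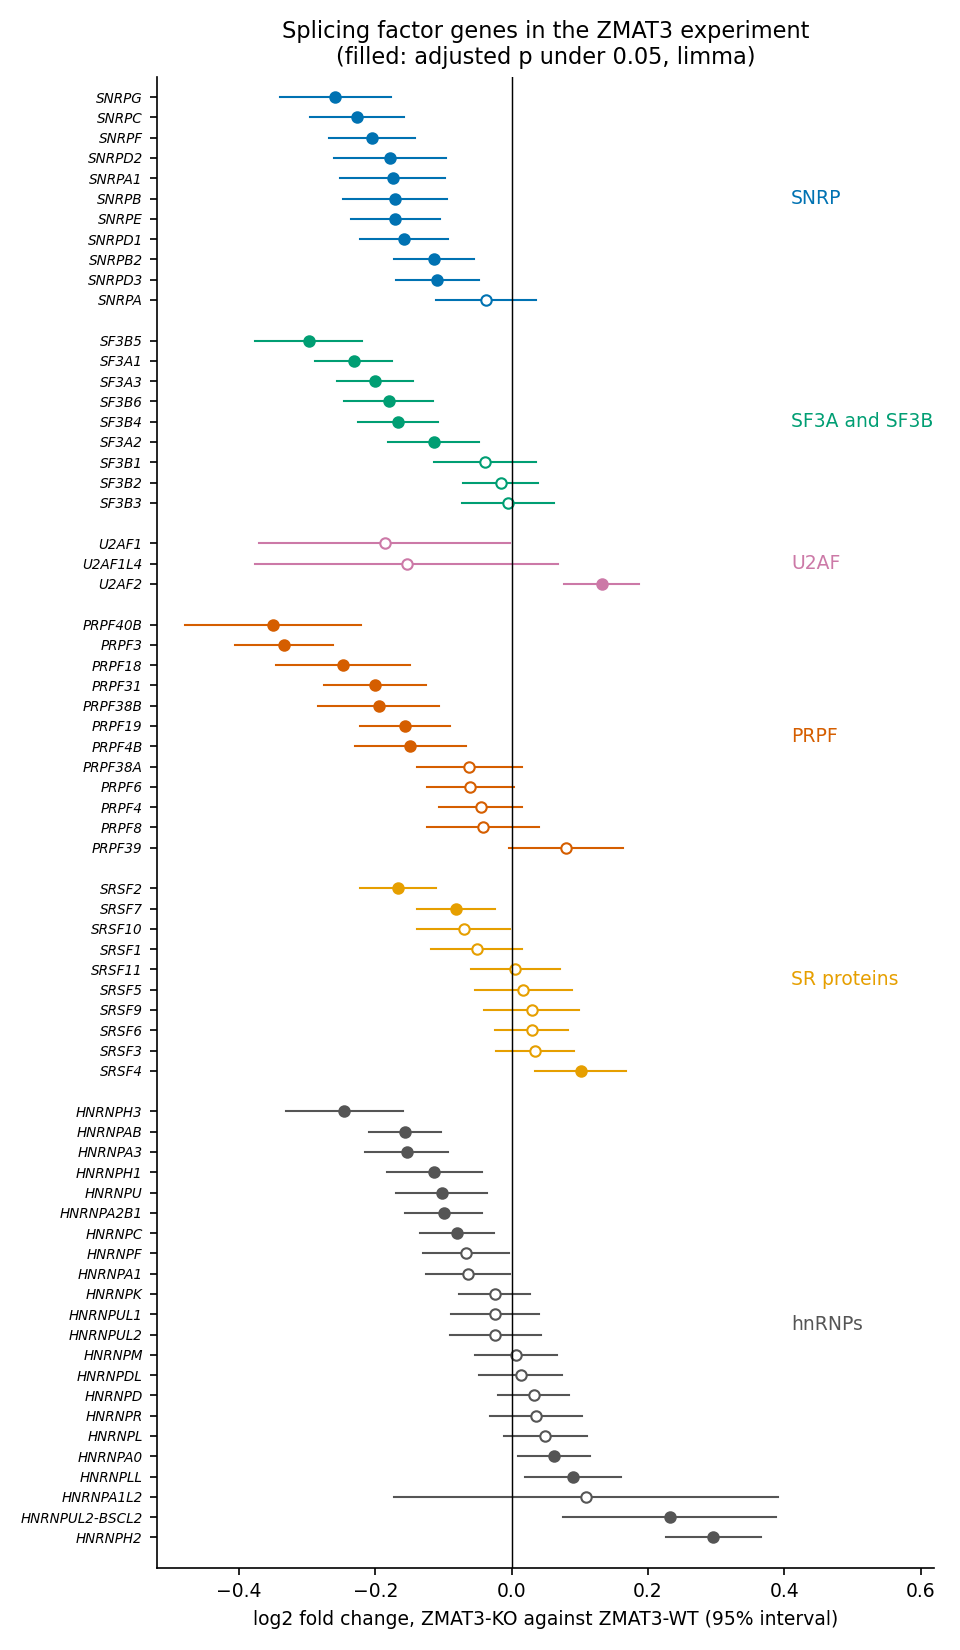
Log2 fold change of 67 of the 68 genes in *ZMAT3*-KO against *ZMAT3*-WT (x axis), by family, with its 95% interval from limma; filled points have an adjusted p under 0.05. All 11 SNRP and all 9 SF3A and SF3B points lie below 0, the largest fall is -0.35 (*PRPF40B*) and the largest rise 0.30 (*HNRNPH2*).

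The SNRP genes moved most uniformly. All 11 were below 0 in *ZMAT3*-KO. In 10 of them (90.9%) the fall passed the adjusted p. The groups of the same 10 did not overlap, where 32.9% of all genes were lower without overlap, and the median log2 fold change was -0.17. The 7 genes of the Sm ring (*SNRPB*, *SNRPD1*, *SNRPD2*, *SNRPD3*, *SNRPE*, *SNRPF* and *SNRPG*) were all lower, by between 0.11 and 0.26 on the log2 scale. Summed CPM of the 11 SNRP genes went from 1990 ± 44.6 to 1772 ± 45.4 (SD, n = 3; -11.0%; exact permutation p = 0.1, the smallest possible).

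*SNRPG*, an Sm ring subunit (chr2:70281362-70293740, minus strand, GENCODE release 44 on hg38), was at 7.29, 7.22 and 7.18 log2 CPM in *ZMAT3*-WT and 6.94, 6.94 and 7.04 in *ZMAT3*-KO. The groups did not overlap, and the difference was -0.26 ± 0.038 (SE; adjusted p = 7.54e-05, limma). *SNRPC*, which codes for the U1 snRNP protein U1-C (chr6:34757505-34773857, plus strand), was at 7.41, 7.35 and 7.35 in *ZMAT3*-WT and 7.15, 7.10 and 7.18 in *ZMAT3*-KO. Its groups did not overlap either, with a difference of -0.23 ± 0.032 (SE; adjusted p = 5.80e-05, limma). *SNRPB*, which codes for the Sm proteins B and B′ (chr20:2461634-2470853, minus strand), was at 8.92, 8.79 and 8.81 log2 CPM in *ZMAT3*-WT and 8.68, 8.63 and 8.69 in *ZMAT3*-KO, every knockout culture lying below every wild-type culture. The gene not called was *SNRPA*, which codes for a U1 snRNP protein that binds the U1 RNA, at 7.06, 6.97 and 7.01 against 6.97, 6.94 and 7.03, where the groups overlapped.

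**Figure D2:**
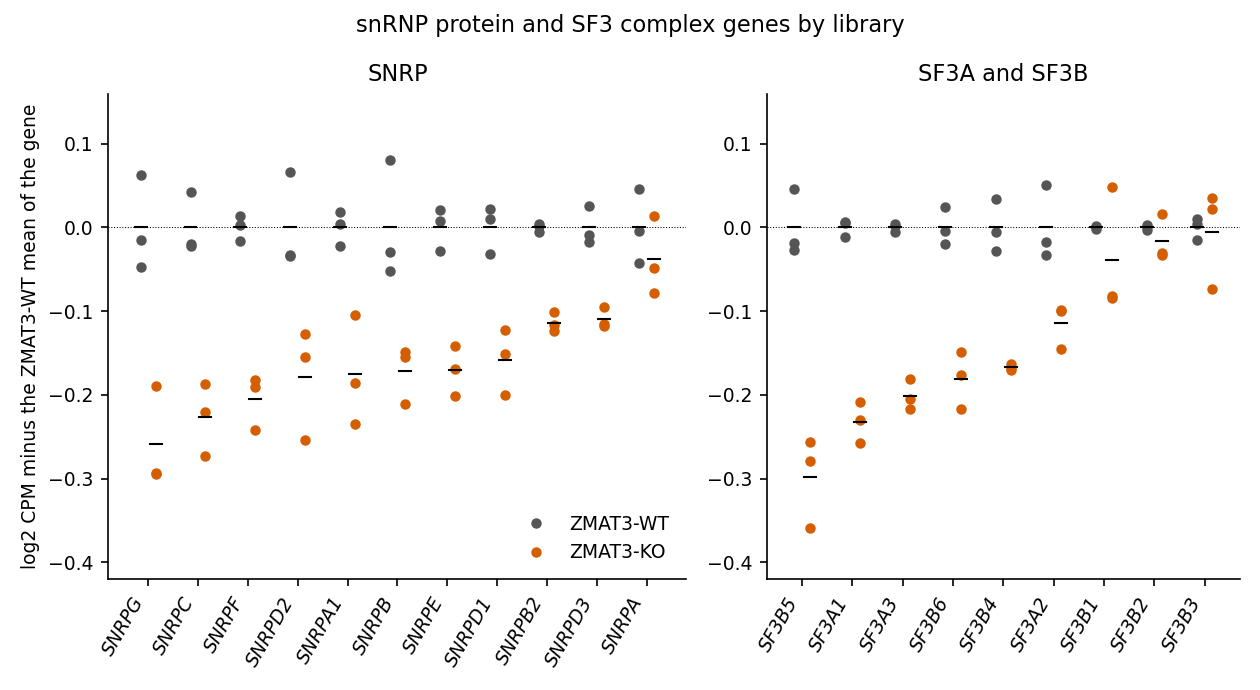
Values of the 11 SNRP genes (left) and the 9 SF3A and SF3B genes (right) in each library, as log2 CPM minus the *ZMAT3*-WT mean of the gene (y axis); grey points are the 3 *ZMAT3*-WT and orange points the 3 *ZMAT3*-KO libraries, and bars are group means. The groups are apart for 10 SNRP genes and for 6 of the 9 SF3 genes and overlap for *SNRPA*, *SF3B1*, *SF3B2* and *SF3B3*.

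Within the U2 snRNP, the SF3A complex and the small SF3B subunits were lower and the large SF3B subunits were not called. All 3 SF3A genes and *SF3B4*, *SF3B5* and *SF3B6* passed the test, 6 of 9 in all (66.7%), with a median of -0.17 over the 9. *SF3B5*, a small subunit encoded by a single exon (chr6:144094884-144095573, minus strand), was at 6.48, 6.42 and 6.41 log2 CPM in *ZMAT3*-WT and 6.18, 6.08 and 6.15 in *ZMAT3*-KO. This was the largest fall of the 9, at -0.30 ± 0.036 (SE; adjusted p = 1.64e-05, limma). *SF3A1*, the largest protein of SF3A (chr22:30331988-30356919, minus strand), was at 8.22, 8.24 and 8.24 against 8.00, 8.03 and 7.98, with no overlap (-0.23 ± 0.026 SE; adjusted p = 8.03e-06, limma). *SF3B1*, the branch-point-binding subunit that is often mutated in myelodysplasia, was at 8.88, 8.88 and 8.88 in *ZMAT3*-WT and 8.79, 8.93 and 8.80 in *ZMAT3*-KO. The *ZMAT3*-KO cultures fell on both sides of the *ZMAT3*-WT values, with a difference of -0.039 and a 95% interval from -0.11 to 0.035. *PHF5A*, another small subunit of SF3B that the prefixes do not take, fell from 6.37 ± 0.045 to 6.12 ± 0.049 log2 CPM (SD, n = 3; -0.25, adjusted p = 7.47e-05, limma); it was picked after its value was seen.

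The PRPF genes held the largest falls of the 68. Of 13, 7 (53.8%) were lower, with a median of -0.15. *PRPF40B*, a homologue of a yeast U1 snRNP protein (chr12:49568218-49644666, plus strand), was at 3.37, 3.33 and 3.38 log2 CPM in *ZMAT3*-WT and 3.01, 3.07 and 2.95 in *ZMAT3*-KO (-0.35 ± 0.059 SE; adjusted p = 0.000259, limma). Its groups did not overlap. *PRPF3*, a U4/U6 snRNP protein (chr1:150321479-150353233, plus strand), was at 6.15, 6.10 and 6.09 against 5.81, 5.78 and 5.75, a fall of 0.33 on the log2 scale (adjusted p = 2.74e-06, limma). The other genes that fell were *PRPF18*, *PRPF31*, *PRPF38B*, *PRPF19* and *PRPF4B*, by between 0.15 and 0.25. *PRPF8*, the large U5 protein at the catalytic centre, was at 9.43, 9.45 and 9.45 against 9.40, 9.49 and 9.31 and was not called.

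The U2AF genes did not move together. *U2AF2*, coding for the large subunit that binds the polypyrimidine tract (chr19:55654146-55674716, plus strand), was at 8.64, 8.61 and 8.62 log2 CPM in *ZMAT3*-WT and 8.77, 8.76 and 8.73 in *ZMAT3*-KO, a rise of 0.13 ± 0.025 (SE; adjusted p = 0.000685, limma). *U2AF1*, coding for the small subunit, was at 5.01, 4.95 and 4.63 against 4.56, 4.70 and 4.77 and its groups overlapped. Its value is uncertain, because the near-identical copy *U2AF1L5* held 87.7% of the CPM of the pair. *U2AF1L5* alone was lower by 0.18, and so was the sum of both, which went from 7.89 ± 0.035 to 7.70 ± 0.032 log2 CPM (SD, n = 3; exact permutation p = 0.1, the smallest possible).

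SR protein genes showed little movement as a group, with 1 of 10 higher, 2 lower (20.0%) and a median of 0.011. *SRSF2* fell from 9.08, 9.06 and 9.06 to 8.93, 8.87 and 8.89 log2 CPM (-0.17 ± 0.026 SE; adjusted p = 0.000128, limma), with a clear gap between the groups. *SRSF7* fell by 0.082 (adjusted p = 0.0170, limma) and *SRSF4* rose by 0.10 (adjusted p = 0.0133, limma). Both calls were lost without *ZMAT3*-WT replicate 2, that of *SRSF4* also without *ZMAT3*-KO replicate 3, and that of *SRSF7* also without *ZMAT3*-WT replicate 3 or the variance trend. *SRSF3*, one of the smallest SR proteins, was at 9.13, 9.16 and 9.17 against 9.19, 9.16 and 9.22 and the groups overlapped. *SRSF8*, which is an SR protein gene in GENCODE release 44 but was left out by the rule, was lower in *ZMAT3*-KO by 0.18 (adjusted p = 0.000566, limma).

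Of the 22 hnRNP genes, 7 (31.8%) were lower, near the 30.1% of all genes, and 4 (18.2%) higher. *HNRNPH2* and *HNRNPH3*, members of the family that binds G-rich RNA, went in opposite directions. *HNRNPH2* (chrX:101408222-101414133, plus strand) was at 6.49, 6.57 and 6.57 log2 CPM in *ZMAT3*-WT and 6.82, 6.85 and 6.84 in *ZMAT3*-KO, the largest rise of the 68 at 0.30 ± 0.032 (SE; adjusted p = 6.20e-06, limma). *HNRNPH3* (chr10:68331174-68343193, plus strand) was at 8.07, 8.20 and 8.22 against 7.87, 7.93 and 7.96, a fall of 0.25 (adjusted p = 0.000171, limma). The groups of both genes were apart, and 1 related gene, *HNRNPH1*, fell by 0.11 while *HNRNPF* was not called. *HNRNPAB* fell by 0.16 (adjusted p = 0.000134, limma), and *HNRNPLL*, a regulator of alternative splicing in lymphocytes, rose by 0.090 (adjusted p = 0.0307, limma), a call lost without *ZMAT3*-KO replicate 3 or *ZMAT3*-WT replicate 2 or 3.

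The hnRNPs with the highest values in either table fell slightly or were not called. *HNRNPA1* was at 10.9, 11.0 and 11.0 log2 CPM in *ZMAT3*-WT and 10.9, 10.9 and 10.9 in *ZMAT3*-KO, a difference of -0.065 (adjusted p = 0.0664, limma). *HNRNPA2B1* fell by 0.10 (adjusted p = 0.00543, limma), *HNRNPU*, a nuclear matrix protein, by 0.10 (adjusted p = 0.0120, limma) and *HNRNPC*, which binds uridine tracts of nascent RNA, by 0.080 (adjusted p = 0.0148, limma). The calls of *HNRNPU* and *HNRNPC* were lost without *ZMAT3*-KO replicate 1 and without the variance trend, that of *HNRNPU* also without *ZMAT3*-KO replicate 3, and that of *HNRNPC* also without *ZMAT3*-WT replicate 2 or 3. The rise of *HNRNPUL2-BSCL2*, by 0.23, is uncertain, since this readthrough gene shares exons with *HNRNPUL2* and its groups overlapped. Its call was lost without *ZMAT3*-KO replicate 2, *ZMAT3*-WT replicate 2 or the variance trend. *HNRNPA0* rose by 0.062, a call lost without *ZMAT3*-KO replicate 1 or 3, *ZMAT3*-WT replicate 2 or 3 or the variance trend.

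Genes that fell in *ZMAT3*-KO also had promoters to compare. RefSeq windows from 250 bases before to 50 after the start site (GRCh38.p14, 300 bases) were found for 60 of the 68 genes, and 11 motifs were searched on both strands. The motif CCGGAAG is the core bound by ETS factors. It was in the windows of 7 of 10 SNRP genes, 6 of 8 SF3A and SF3B genes and 2 of 9 PRPF genes. Over the 68 genes it was in 21 of the 60 with a window. It was in 23.2% of the 9730 genes of the *ZMAT3* table with a window and in 12.2% of all genes with one. Stretches of 30 bases around it are shown for 5 genes that fell and 2 that rose, in the direction of the gene, with the motif or its reverse complement CTTCCGG in capitals.

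SNRPG (chr2:70293490-70293519, minus strand): cttcatttcttCTTCCGGtccgaggtcgcc
SNRPB (chr20:2470812-2470841, minus strand): agtgagctggaCCGGAAGtaggtttctacc
SNRPD2 (chr19:45692361-45692390, minus strand): ggtccatgcccCTTCCGGatgtaggcaggg
SF3A1 (chr22:30356925-30356954, minus strand): aggggacggtcCCGGAAGtgcgccagtcgt
SF3B4 (chr1:149927811-149927840, minus strand): ccgtcttcgccCCGGAAGtggaagtcgtgc
U2AF2 (chr19:55654994-55655023, plus strand): gccggcggcggCCGGAAGtagccgaagcca
HNRNPLL (chr2:38602933-38602962, minus strand): aggagggaagaCCGGAAGccacggttgcgt

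In these stretches the motif began between 63 and 23 bases before the RefSeq start site of the window. RefSeq and GENCODE starts can differ, and 5 of the 7 stretches lie inside the gene as GENCODE release 44 bounds it. *SNRPG* has 3 RefSeq windows and held a second match, 175 bases before another of its starts. Of the genes with a window, 13 of 28 lower in *ZMAT3*-KO held it, 3 of 6 higher and 5 of 26 not called. It was in 3 of 21 hnRNP genes, of which 18 held CCAAT, against 43.3% of the genes of the *ZMAT3* table. The longer form CCGGAAGT, a subset of the same matches, was in 14 of the 60 genes with a window, against 10.3% of the genes of the *ZMAT3* table. ATGGCG, the core of the YY1 motif, was in 25 of the 60 genes, against 22.4% of the genes of the *ZMAT3* table. It was in 10 of 28 genes lower in *ZMAT3*-KO, 0 of 6 higher and 15 of 26 not called. These motifs were picked from the 11 after the counts were seen, and binding was not measured here.

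Many genes that fell have short mRNAs. Over the 68, the log2 fold change and the length of the canonical transcript (GENCODE release 44) had a Spearman correlation of 0.39 across genes, against 0.083 over 11573 coding genes; genes of 1 table share libraries and are not independent. The SNRP transcripts had a median of 1082 bases, the hnRNP transcripts 3397. Of the 8 genes with transcripts of up to 1000 bases, 6 were lower, with a median of -0.20. Of the 600 other coding genes of that length, 39.8% were lower, with a median of -0.067. Between 1000 and 2000 bases, 9 of 13 were lower with a median of -0.17, beside 35.5% of 2019 others with a median of -0.038. Above 2000 bases, in bins parted at 3000 and 5000 bases, the splicing genes had medians of -0.067, -0.020 and -0.047. The other coding genes of those bins had medians of -0.017, 0.0087 and 0.018. Thus short transcripts were lower as a class, and the median of the splicing genes was below that of the others in every length bin. The part of length in the result was not tested. With sip53 the relation to length ran the other way, with a Spearman correlation of -0.23 over the 68 genes and -0.13 over 12161 coding genes. There the 8 genes of up to 1000 bases had a median of 0.23, beside 0.11 for the 760 other coding genes of that length.

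**Figure D3:**
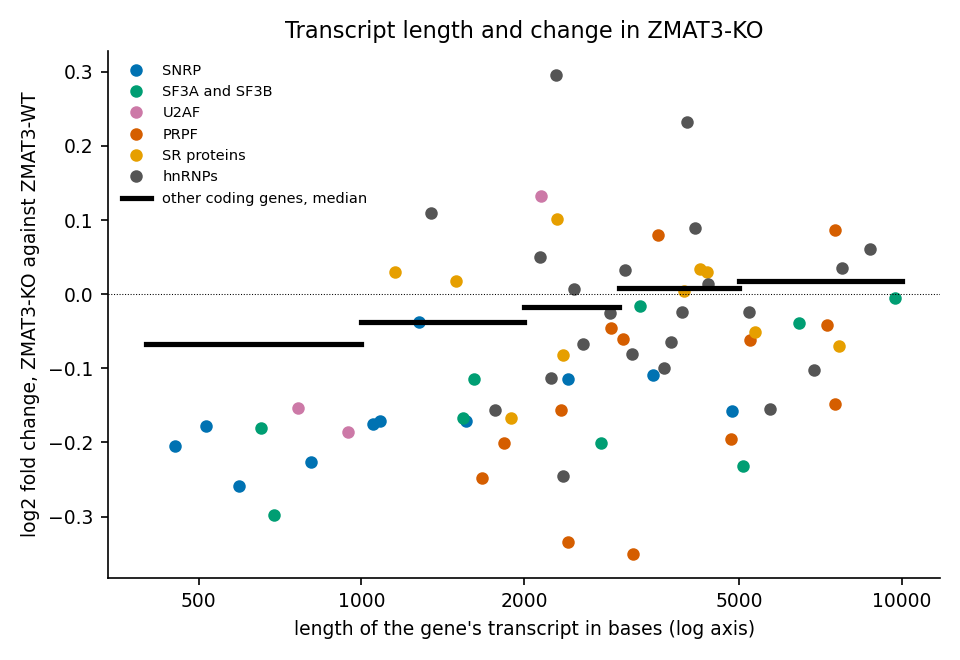
Log2 fold change in *ZMAT3*-KO against *ZMAT3*-WT (y axis) against the length of the canonical transcript in bases (log x axis) for the 68 genes, coloured by family; black bars are medians of the other coding genes in 5 length bins. The SNRP and SF3B transcripts of up to 1000 bases lie below the bar of their bin, which is -0.067.

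Other genes of the splicing pathway, from lists drawn up from general knowledge, moved in the same way in part. Of 75 other spliceosome components, 39 (52.0%) were lower and 8 (10.7%) higher, against 30.1% and 28.7% of all genes, with a median of -0.09. *WBP4*, a U1- and U2-associated protein, fell from 5.28 ± 0.057 to 4.75 ± 0.028 log2 CPM (SD, n = 3), and *CD2BP2*, a U5 snRNP protein, rose from 5.59 ± 0.024 to 6.23 ± 0.012, by 0.63. *SNRNP70*, coding for the U1-70K protein, fell by 0.24, while the 3 LUC7-like genes of U1-associated proteins, *LUC7L*, *LUC7L2* and *LUC7L3*, rose by 0.19, 0.11 and 0.14 (adjusted p = 0.00214, 0.00832 and 0.00334, limma). Those 4 genes were picked after their values were seen.

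Of 20 genes of the SMN complex and snRNP assembly, which load the Sm ring onto RNA, 9 (45%) were lower and 1 (5%) higher. The shares of all genes were 30.1% and 28.7%. The 9 included both *SMN1* and *SMN2*, at -0.16 and -0.22. *GEMIN5*, which recognises the small nuclear RNAs, fell most, from 7.48, 7.41 and 7.44 to 6.33, 6.45 and 6.28 log2 CPM, or 2.14-fold (-1.09 ± 0.040 SE; adjusted p = 2.26e-10, limma). *NCBP1*, the larger nuclear cap-binding subunit, rose by 0.097, a call lost without *ZMAT3*-KO replicate 1 or 2, *ZMAT3*-WT replicate 1 or the variance trend. Of 30 exon junction complex and SR-related genes, 14 (46.7%) were lower and 7 (23.3%) higher, against the same 30.1% and 28.7% of all genes. *MAGOH*, an exon junction complex core protein, fell by 0.39 and *CLK1*, a kinase of SR proteins, rose by 0.32. Of 14 genes of nonsense-mediated decay, 9 (64.3%) were lower and 2 (14.3%) higher, against those same shares of all genes. Among them, *RUVBL1* fell by 0.36 and *UPF3A* rose by 0.23.

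Regulators of alternative splicing outside these families showed no such tilt. Of 51, 14 were lower and 15 higher, with a median of -0.008, close to the shares of all genes. Its largest fall and its largest rise came from the paralogues *MBNL1* and *MBNL3*. *MBNL1* went from 7.98, 8.05 and 8.05 to 7.48, 7.52 and 7.43 log2 CPM, and *MBNL3* from 4.15, 4.21 and 4.29 to 4.84, 4.90 and 4.88. The first fell by 0.55 and the second rose by 0.66 on the log2 scale, both without overlap.

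With sip53, none of the 68 genes passed the test in the fit without pairing. A fit that paired libraries by differences seen in these same data gave other counts, as given with the replicates. By limma on log2(FPKM + 0.1), 0 of 68 had an unadjusted p under 0.05, against 15.1% of the 14274 genes tested, and 0 had an adjusted p under 0.05, against 0.273%. Among the 2191 genes with a mean over 50 FPKM, these shares were 9.49% and 0.137%. All 68 passed the filter of a mean of 0.5 FPKM. The median log2 fold change was 0.018, against -0.040 for all genes, and 32 of 68 values were below 0. This median had no stable sign, running from -0.041 without sip53 replicate 2 to 0.13 without sip53 replicate 1, with -0.013 without siCTRL replicate 2 and 0.10 without siCTRL replicate 1, and being 0.094 after centring the libraries. Single values ranged from -0.52 to 0.55, and the largest and smallest both had intervals that spanned 0.

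The genes nearest to the threshold were *SRSF1*, *PRPF39*, *SRSF6* and *SNRPD2*. *SRSF1*, the founding member of the SR family, was at 149 and 158 FPKM with siCTRL and 123 and 93.8 with sip53, a difference of -0.51 with a 95% interval from -1.05 to 0.020. *PRPF39*, a U1-associated protein, was at 8.12 and 7.22 against 9.60 and 12.4 (0.51, 95% interval from -0.026 to 1.04). *SRSF6* was at 75.4 and 83.6 against 64.4 and 50.9, and *SNRPD2* at 398 and 459 against 599 and 574. In all 4 the groups did not overlap, as was so for 20 of the 68 genes and for 46.4% of all genes tested. *SRSF8*, left out by the rule, was at 16.2 and 23.7 against 10.3 and 6.13 FPKM (-1.29, unadjusted p = 0.00944, adjusted p = 0.189, limma).

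Of the families that were mostly lower in *ZMAT3*-KO, SNRP and SF3 genes had medians of opposite sign with sip53, with wide intervals for each gene. The 11 SNRP values had a median of 0.25 with 1 below 0, and the 9 SF3A and SF3B values a median of -0.25 with 7 below 0. *SNRPG* was at 219 and 178 FPKM with siCTRL and 195 and 281 with sip53, and *SNRPC* at 220 and 172 against 172 and 256. Both genes overlapped between the groups. *SF3A1* was at 99.0 and 80.7 against 57.5 and 77.6, without overlap, and *SF3B5* at 129 and 152 against 121 and 115, also without overlap. The intervals reached from -0.40 to 0.89 for *SNRPG* and from -1.01 to 0.17 for *SF3A1*, so a change of the size seen in *ZMAT3*-KO was inside both.

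Across the 32 genes lower in *ZMAT3*-KO, 19 were above 0 and 13 below 0 with sip53, and the median was 0.052. Of the 29 genes not called in *ZMAT3*-KO, 15 were above 0 and 14 below, with a median of 0.0079. Of the 7 genes higher in *ZMAT3*-KO, 2 were above 0 and 5 below. *HNRNPH2*, with the largest rise in *ZMAT3*-KO, was at 64.9 and 57.2 FPKM with siCTRL and 42.9 and 50.1 with sip53, a lower value in both sip53 libraries (-0.39, 95% interval from -0.87 to 0.087). *PRPF3*, with one of the largest falls in *ZMAT3*-KO, was at 23.9 and 20.0 against 25.6 and 35.0, a higher value in both (0.45, 95% interval from -0.13 to 1.03). Other genes had the same sign in both experiments. *PRPF18* and *PRPF31*, which fell in *ZMAT3*-KO, were at -0.51 and -0.39 with sip53 (95% intervals from -1.22 to 0.21 and from -0.97 to 0.19). The difference between the experiments was not tested, since the tables were normalized separately.

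**Figure D4:**
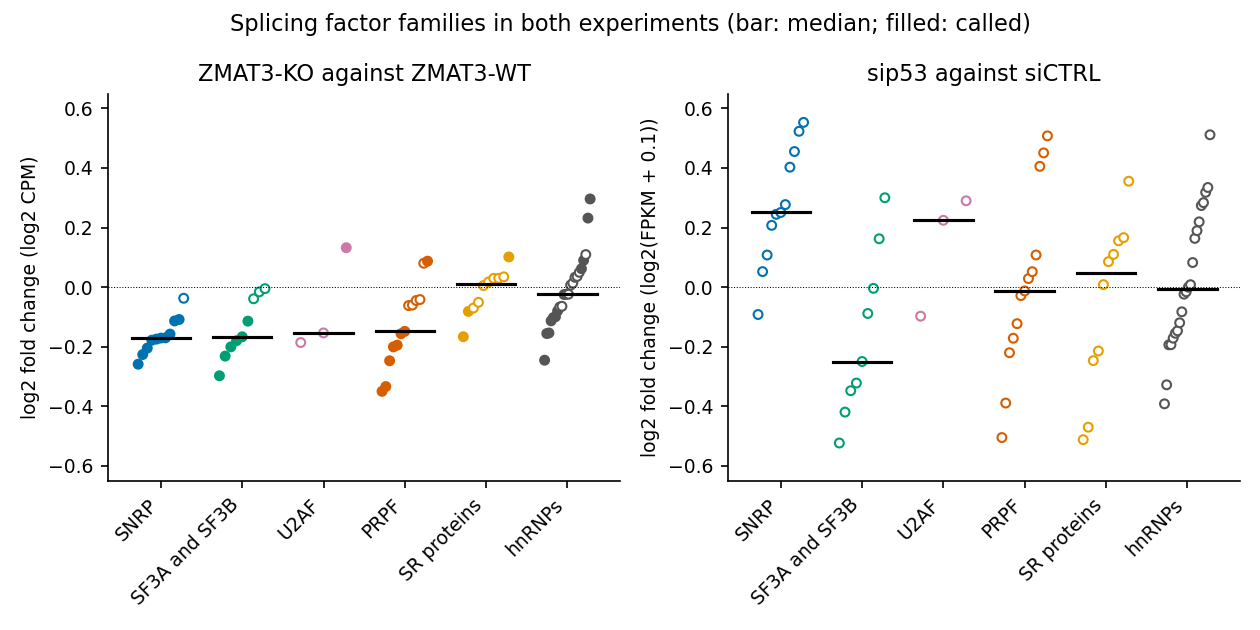
Log2 fold changes of the 68 genes by family in *ZMAT3*-KO against *ZMAT3*-WT (left, log2 CPM) and with sip53 against siCTRL (right, log2(FPKM + 0.1)); bars are family medians, and filled points were called (left, adjusted p under 0.05; right, unadjusted p under 0.05, none). The SNRP median is -0.17 on the left and 0.25 on the right, and the spread within families is wider on the right.

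The siRNA libraries differed within their groups. The median absolute difference between replicates of the 68 genes was 0.26 with siCTRL and 0.39 with sip53 on the log2 scale. siCTRL replicate 1 was above siCTRL replicate 2 for 47 of the 68 genes, by a median of 0.22 on the log2 scale, and sip53 replicate 2 was above sip53 replicate 1 for 46, by a median of 0.33. The same 43 genes were higher in both of those libraries. Over all 14274 genes these medians were 0.016 and 0.0086. The counts there were 7347 for siCTRL, 7221 for sip53 and 5481 for genes higher in both libraries. *HNRNPC* was at 1268 and 768 FPKM with siCTRL and 1016 and 1948 with sip53, and *SF3B3* at 150 and 71.1 against 47.8 and 108. For both genes the replicates of each group lay further apart than the group means did. Without sip53 replicate 1 the median log2 fold change of the 68 genes was 0.13, against -0.032 for all genes tested. Without sip53 replicate 2 it was -0.041, against -0.049. These fits keep a single sip53 library. A further fit put siCTRL replicate 1 and sip53 replicate 2 in the same block and the other libraries in another. It was chosen after the differences between replicates were seen and removes those same differences, so its counts are not a separate test. By limma with an adjusted p under 0.05, this fit gave 12 of the 68 genes as higher and 10 as lower. Of the 14274 genes tested, it gave 1553 as higher and 2089 as lower, or 25.5% called in either direction. The labels do not pair these libraries.

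**Figure D5:**
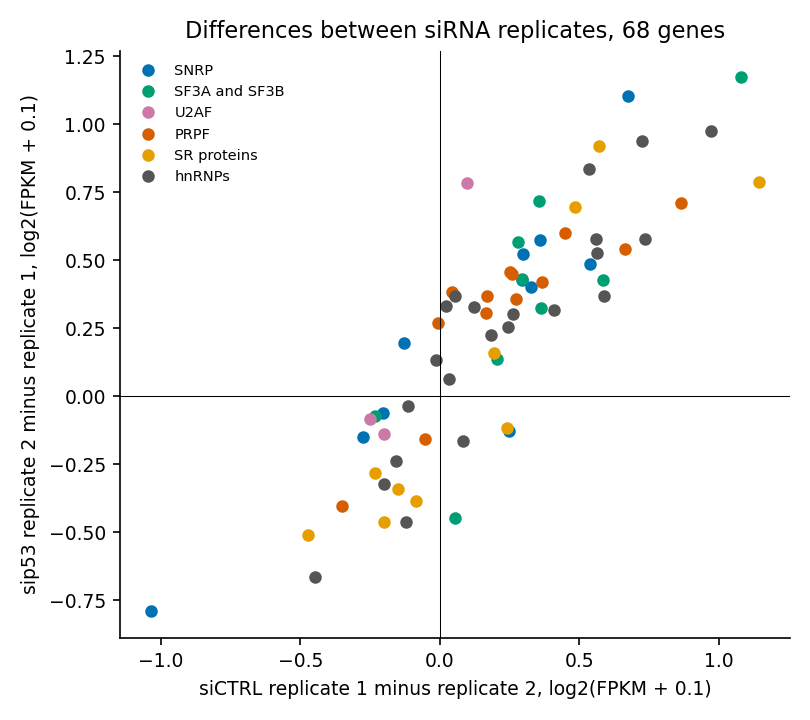
Difference between the sip53 replicates (y axis, replicate 2 minus 1) against that between the siCTRL replicates (x axis, replicate 1 minus 2), both in log2(FPKM + 0.1), for the 68 genes coloured by family. Most points lie in the upper right, where 43 genes were higher in siCTRL replicate 1 and in sip53 replicate 2.

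Compared per length, hnRNP mRNAs were the most abundant of the machinery in control cells. With siCTRL the family medians were 205 FPKM for hnRNPs, 142 for SNRP, 120 for SF3A and SF3B, 107 for SR proteins, 103 for U2AF and 28.1 for PRPF genes. *HNRNPC* (1018 ± 354), *HNRNPA1* (987 ± 59.7) and *HNRNPA2B1* (778 ± 99.7 FPKM, SD, n = 2) had the highest means, and those of *HNRNPC* and *HNRNPA1* did not differ beyond their spread. *PRPF40B* was lowest at 4.51 ± 0.099 FPKM. Together the 68 genes made up 1.42% of the summed FPKM of the genes tested.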

How the data were processed

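Values came from the deposited gene tables, with libraries grouped by their labels. For the *ZMAT3* libraries the authors selected polyadenylated RNA, built stranded libraries, mapped reads to hg38 with STAR and counted genes with RSEM. They deposited log2 CPM. How these were scaled is not given in the sources used here, but all 6 libraries share nearly the same set of values, as after quantile normalization. The values deposited for the siRNA libraries were read as FPKM from their scale, and the steps behind them are not given in the sources used here. The submitters' processing notes name CASAVA 1.8.2, TopHat2 2.0.8 and FastQC 0.11.2 without saying for which libraries. The tables also hold the authors' fold changes and p-values, which were not used. Neither table gives counts, so depth and counting error are unknown.

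The experiments were fitted separately over all genes with limma (version 3.58.1, R 4.3.3), using lmFit and then eBayes with its trend option. Tests were two-sided, and p-values were adjusted by Benjamini and Hochberg. The *ZMAT3* table was not filtered. For the siRNA table, log2(FPKM + 0.1) was fitted where the mean reached 0.5 FPKM. Fold changes are on these log2 scales. Sums were compared with exact permutation tests in scipy 1.17.1. The fits were tested on simulated data.

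Genes named are, per family, the 2 with the largest rise and the 2 with the largest fall among those with an adjusted p under 0.05 and no overlap, the 3 with the highest level in each table, and the largest rise and fall of each other list. Further genes were picked after their values were seen. The genes and lists were chosen with earlier results of these data known. *SF3B6* is listed as *SF3B14* in the siRNA table and was joined by its Ensembl identifier. Transcript lengths and gene positions are from GENCODE release 44, which is not the release used by the authors. The level of the siRNA target itself, and the values of 1 of the 68 genes, are not reported here. Settings were varied as follows: a pseudocount of 1, other filters (a mean log2 CPM of 0, a mean of 5 FPKM, none), centring on the median gene, no variance trend, a replicate block, and each library left out. Figures were drawn with matplotlib 3.10.9.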

Additional observations from a re-analysis of the deposited data

How the results depend on the processing

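In *ZMAT3*-KO the counts of 32 lower and 0 past 1.5-fold, and of 10 lower SNRP, 6 lower SF3A and SF3B and 7 lower PRPF genes, stayed within 1.5 times under all 11 alternatives. The counts of higher genes were less stable. Without the variance trend, 4 genes of the 68 were higher, with 2 hnRNP and 5 other spliceosome genes and 0 of the SMN list, and 1 SR protein gene and 4 hnRNPs were lower. Leaving out 1 library gave 3 to 8 higher genes of the 68, 0 to 1 SR protein, 1 to 5 hnRNP, 5 to 8 other spliceosome, 1 to 2 nonsense-mediated decay and 0 to 1 SMN genes higher, 1 to 4 SR protein and 0 to 1 U2AF genes lower, and a median log2 fold change between -0.092 and -0.068. Same-numbered libraries of the *ZMAT3* experiment did not deviate together (correlations -0.039, -0.022 and -0.093, no library correlating best with its own number), and the replicate block gave 7 higher and 34 lower genes and changed no count by over 1.5 times. The family and list counts under these alternatives were chosen after seeing the data. Over the 43 genes followed singly and 11 alternatives, 445 of 473 values kept their direction and call, 27 lost the call and 1 gained it.

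With sip53, 0 genes had an adjusted p under 0.05 under every alternative but one. At an unadjusted p of 0.05 by limma, centring gave 2 higher and 0 lower genes of the 68, against 1120 and 1048 of the 14274 genes tested. The replicate block gave 0 of each, against 434 and 650. Leaving out 1 library gave a median log2 fold change of the 68 between -0.041 and 0.13. Same-numbered libraries deviated in opposite directions (correlation -0.62 over 14274 genes). Blocking siCTRL replicate 1 with sip53 replicate 2, and the other libraries together, was a choice made after seeing this. At an unadjusted p of 0.05 by limma it gave 18 higher and 12 lower genes, against 2410 and 3128 of the 14274 genes tested. Of these, 12 and 10 passed an adjusted p of 0.05, against 1553 and 2089 of all genes tested. Of 229 values of 23 genes, 16 changed sign, all uncalled. Centring turned *HNRNPLL* to 0.075, and a pseudocount of 1 turned *HNRNPLL* to 0.00057. Without 1 library, log2 fold changes ran from -0.069 to 0.23 for *HNRNPA2B1*, -0.32 to 0.65 for *HNRNPH3*, -0.33 to 0.33 for *HNRNPLL*, -0.14 to 0.24 for *PRPF40B*, -0.18 to 0.40 for *SNRPC*, -0.018 to 0.51 for *SNRPG*, -0.011 to 0.18 for *SRSF2*, -0.22 to 0.24 for *SRSF7* and -0.20 to 0.0014 for *U2AF2*. The causes were not tested. Depth is unknown, and with 2 libraries a group the intervals are wide.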
